A study of Mus musculus with 12 samples.

Results

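The response of MLK2/MLK3 double knockout lung endothelial cells to low oxygen was read from 6 of the 12 libraries of a mouse RNA sequencing series. Of these, 3 were from cells kept in normoxia (21% oxygen) and 3 from cells kept in hypoxia (1% oxygen) for 90 min. The members described are the 11378 of 23422 genes that averaged at least 1 FPKM (fragments per kilobase of transcript, scaled to the mapped fragments of the library) over the 12 libraries, with the values of a gene's transcripts summed. The cells were primary mouse lung endothelial cells (MLECs) of the genotype MLK2-/-MLK3-/-, grown as monolayers in a medium with serum, endothelial mitogen and heparin. The other 6 libraries were of C57BL/6J wild type cells in the same medium, 3 in normoxia and 3 in hypoxia, and their part here is to share the estimate of the spread and to test differences between the genotypes. The series asked which pathways lie downstream of the mixed lineage kinases (MLKs), kinases that act upstream of JNK and p38. The labels give no age of the mice, no strain of the double knockout and no deleted exons, and they do not say whether libraries of 1 group stem from different cultures or mice. Every p therefore measures only the spread between these libraries.

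As background, cells sense oxygen through prolyl hydroxylases of the EGLN family, which mark the alpha subunits of the hypoxia-inducible factors (HIFs) for recognition by VHL and destruction while oxygen is present. When oxygen falls the alpha subunits are spared, pair with ARNT and bind DNA at hypoxia response elements, whose core is written RCGTG. Their targets move glucose into glycolysis, keep pyruvate out of mitochondria and signal for new vessels. In lung endothelium, the layer that lines the capillaries of gas exchange, the same factors act beside shear stress, Notch and growth factor signals.

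Depth was estimated at 21200000 to 24600000 fragments over the 6 libraries, so that 2000 effective bases at 1 FPKM rested on about 42.4 to 49.2 fragments. Effective bases are the transcript length less the 275 bases that the estimate took off. Pearson's r of log2 values across genes was 0.9937 to 0.9948 within a group and 0.9843 to 0.9870 across groups. The 12 endothelial marker genes summed to 4438 to 4551 FPKM in normoxia and 4476 to 4633 FPKM in hypoxia. The 6 lymphatic endothelial markers summed to 609 to 685 FPKM in normoxia and 644 to 718 FPKM in hypoxia. Of these, Lyve1 was at 235 to 279 FPKM and Mmrn1 at 227 to 261 FPKM. The 7 mural markers summed to 25.8 to 27.2 FPKM in normoxia and 27.6 to 33.2 FPKM in hypoxia, most of it Tagln. Among the markers of lymphocytes, lung epithelium and mesothelium, the keratin Krt18 was at 25.7 to 30.1 FPKM and the others were under 1 FPKM in every library. Cd3e, Nkg7 and Scgb1a1 were listed at 0 throughout, Epcam reached 0.103 FPKM, and the leukocyte gene Ptprc was at 0.287 to 1.28 FPKM. The epithelial list summed to 25.9 to 30.4 FPKM in normoxia and 27.9 to 30.7 FPKM in hypoxia, nearly all of it Krt18. The macrophage list summed to 61.7 to 73.7 FPKM in normoxia and 60.1 to 66.9 FPKM in hypoxia, nearly all of it Lyz2. In bulk RNA, fewer cells of a type and less RNA per cell cannot be told apart.

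Map3k10, the gene of MLK2, was at 0.145, 0.169 and 0.131 FPKM in the normoxia libraries of the double knockout and at 1.34, 1.15 and 1.02 FPKM in its hypoxia libraries, against 16.6 to 19.2 FPKM in wild type. The double knockout libraries stood far below all wild type libraries, and within them hypoxia was above normoxia. That difference was 0.92 on the log2 scale with the pseudocount of 1 FPKM and 2.35 with 0.1 FPKM, so its size depends on the pseudocount, and the gene passed the filter on low values through its wild type level alone. The double knockout signal of Map3k10 came from ENSMUST00000036453, while ENSMUST00000138243, the main wild type transcript at 13.1 to 15.8 FPKM there, was listed at 0 in all 6 libraries. In wild type ENSMUST00000036453 was at 2.55, 2.61 and 2.73 FPKM at 21% oxygen and at 4.25, 3.46 and 3.15 FPKM at 1% oxygen, so that there too its hypoxia libraries lay above its normoxia libraries. Map3k11, the gene of MLK3, went from 11.5, 10.9 and 11.1 FPKM at 21% oxygen to 12.2, 11.5 and 11.2 FPKM at 1% oxygen (log2 change 0.05, limma adjusted p = 0.412), against 31.9 to 36.4 FPKM in wild type. Since the deleted part of Map3k11 is not given, its remaining signal does not check the loss of the protein.

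Hypoxia changed 39.3% of the tested genes in the double knockout, 2233 upward (19.6%) and 2235 downward (19.6%), at a limma adjusted p under 0.05 over all 11378 genes. Changes are differences of mean log2(FPKM + 1), which understates the change of genes at low levels, and levels are given as FPKM with the mean ± SD of n = 3 libraries unless each library is named. Most changes were small. The median log2 change was 0.27 among the genes that rose and -0.33 among those that fell. The median over all tested genes was 0.01. Past a log2 change of 0.5 were 283 genes upward and 461 downward, past 1 were 41 upward and 17 downward, and past 2 were 6 genes, all upward. The response therefore had few strong rises, many mild falls and no fall past 2. The 3 hypoxia libraries lay wholly above or below the 3 normoxia libraries for 50.3% of tested genes, and for 2180 of the genes called higher and 2173 of those called lower.

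**Figure D1:**
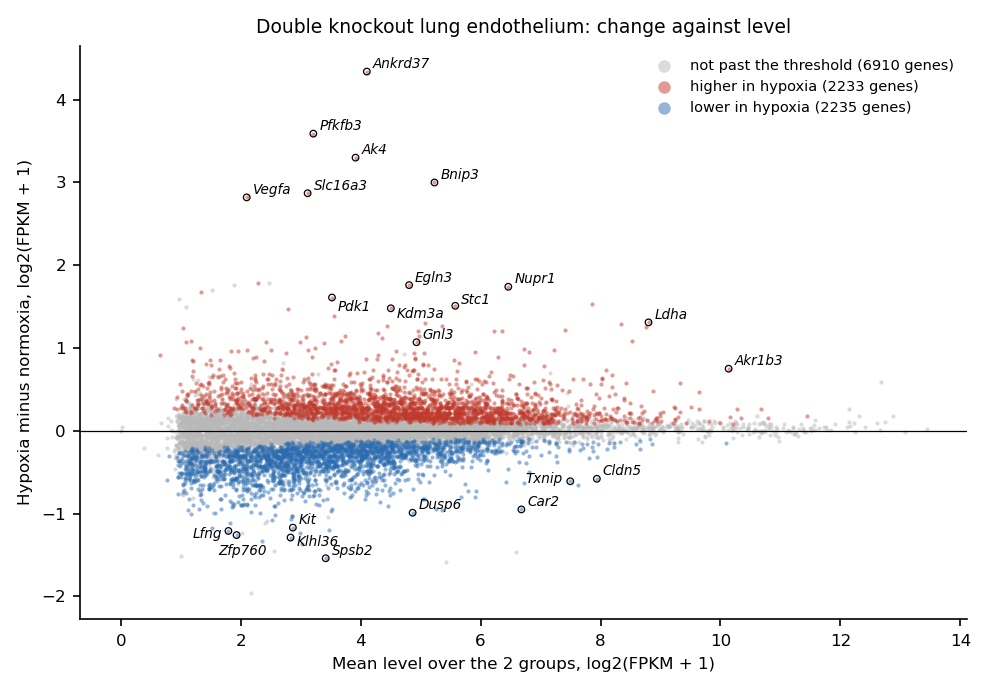
Each point is 1 of the 11378 tested genes in MLK2/MLK3 double knockout cells, with its mean level on the x axis and its change from 21% to 1% oxygen on the y axis, both on the log2(FPKM + 1) scale; coloured points passed a limma adjusted p of 0.05. The 6 genes above 2 are all rises, while the genes lower in hypoxia crowd between 0 and -1.

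The strongest rises were of genes that serve glucose use, energy charge and vessel growth. Ankrd37, a small ankyrin repeat protein and a known HIF target, went from 2.57, 3.50 and 2.44 FPKM at 21% oxygen to 78.8, 80.4 and 69.0 FPKM at 1% oxygen. Pfkfb3, which makes the allosteric activator of phosphofructokinase and is the main driver of glycolysis in sprouting endothelium, went from 2.06, 1.48 and 1.48 FPKM at 21% oxygen to 34.6, 31.1 and 27.5 FPKM at 1% oxygen. Ak4, a mitochondrial adenylate kinase, went from 2.73, 3.33 and 5.54 FPKM at 21% oxygen to 45.6, 52.5 and 39.3 FPKM at 1% oxygen. The ranking of the largest rises admitted only genes whose libraries did not overlap, so the lack of overlap is part of the choice. Bnip3, a receptor for the removal of mitochondria, went from 11.6, 13.4 and 12.0 FPKM at 21% oxygen to 105, 113 and 97.8 FPKM at 1% oxygen. Slc16a3, the lactate exporter MCT4, went from 2.21 ± 0.312 to 22.4 ± 2.26 FPKM. Vegfa, the main growth signal for endothelium, went from 0.991, 0.602 and 0.281 FPKM at 21% oxygen to 11.2, 10.4 and 9.26 FPKM at 1% oxygen. These 6 genes were the ones past a log2 change of 2, from 4.34 (SE 0.13) for Ankrd37 to 2.82 (SE 0.17) for Vegfa, with limma adjusted p from 9.79e-11 for Bnip3 to 4.83e-07 for Vegfa.

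A further tier rose by 1 to 2 on the log2 scale. Stc1, a secreted glycoprotein of calcium and phosphate balance, went from 27.2 ± 2.01 to 79.9 ± 10.7 FPKM. Kdm3a, a histone H3 lysine demethylase that itself needs oxygen, went from 12.4, 13.3 and 12.0 FPKM at 21% oxygen to 38.5, 36.6 and 35.2 FPKM at 1% oxygen. Hk2, the inducible hexokinase, went from 2.98, 3.12 and 3.36 FPKM at 21% oxygen to 11.2, 10.9 and 9.28 FPKM at 1% oxygen. The log2 changes of these 3 genes were 1.51, 1.48 and 1.47. Adamts1, a secreted metalloproteinase, rose from 25.3 ± 1.28 to 63.1 ± 10.2 FPKM. Plat, tissue plasminogen activator, rose from 52.8 ± 2.09 to 124 ± 10.4 FPKM. Slc2a1, the glucose transporter GLUT1, rose from 48.4 ± 2.23 to 113 ± 5.17 FPKM. All 3 passed the threshold under each of the 15 alternative analyses.

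The steepest falls named here were of genes under 20 FPKM in these cells. Predicted or unnamed gene models and genes with overlapping libraries were passed over in this ranking. The lowest log2 change over all tested genes was -1.96. Spsb2, an adaptor that brings targets such as inducible nitric oxide synthase to a cullin ubiquitin ligase, went from 16.1, 16.8 and 18.7 FPKM at 21% oxygen to 4.75, 5.63 and 5.43 FPKM at 1% oxygen. Klhl36, a kelch adaptor of cullin ligases, went from 9.93, 10.2 and 10.3 FPKM at 21% oxygen to 3.18, 3.96 and 3.54 FPKM at 1% oxygen. Zfp760, a zinc finger protein, went from 5.16, 4.81 and 4.77 FPKM at 21% oxygen to 1.39, 1.57 and 1.44 FPKM at 1% oxygen. The log2 changes of these 3 genes were -1.54, -1.29 and -1.26. Lfng, a glycosyltransferase that tunes Notch receptors, fell from 4.28 ± 0.271 to 1.28 ± 0.0446 FPKM. Kit, the receptor of stem cell factor and a marker of lung capillary endothelium, went from 10.3, 10.4 and 9.22 FPKM at 21% oxygen to 3.83, 3.88 and 3.90 FPKM at 1% oxygen. Of 12 tested lung capillary and venous markers Kit was the 1 that fell, while 4 rose. That 41.7% called was near the 39.3% of all tested genes. Trmt5, a tRNA methyltransferase, went from 7.11, 7.34 and 7.73 FPKM at 21% oxygen to 2.90, 2.92 and 3.09 FPKM at 1% oxygen. The remaining large falls included Lysmd4 (-1.11), Wscd1 (-1.06), Thap3 (-1.03) and Ccdc28b (-1.03) on the log2 scale. Oxnad1 also had a large fitted fall (-1.37, SE 0.46), but its normoxia libraries spread from 4.74 to 22.4 FPKM and its call was lost under 6 of 15 alternatives.

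**Figure D2:**
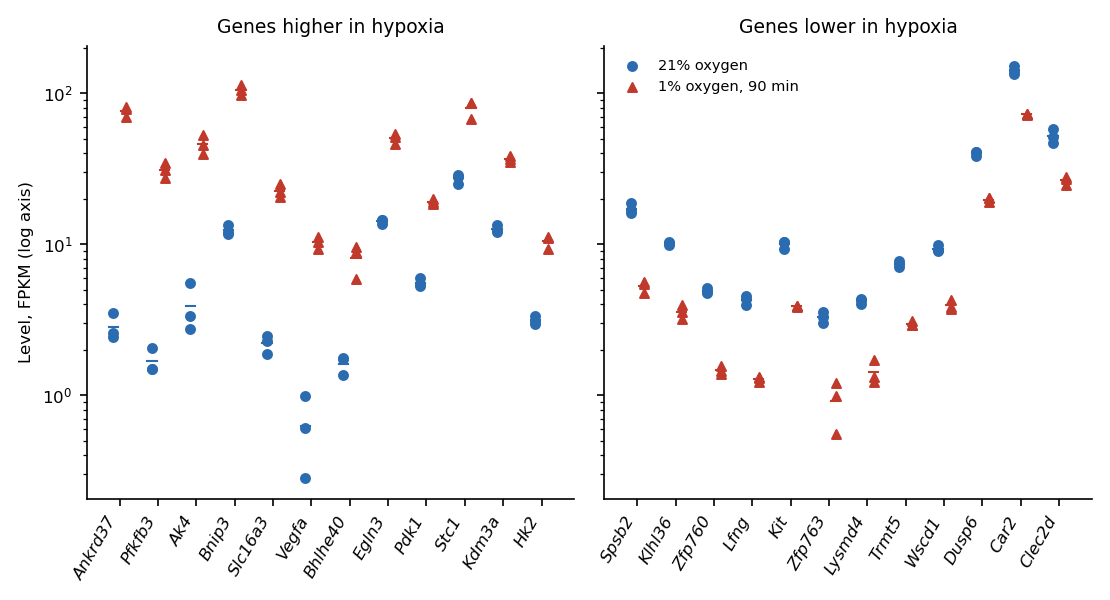
Levels in FPKM (log axis) of 12 genes that rose and 12 that fell, with 1 point for each of the 3 libraries at 21% oxygen (circles) and at 1% oxygen for 90 min (triangles) and a line at each mean. The ranking of the largest changes admitted only genes without overlap of libraries, so the gap between circles and triangles is part of the choice.

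The bases upstream of 7 of these and related genes are shown because the core of the hypoxia response element can be read in them directly. They are the 250 bases before the RefSeq start of transcription on GRCm38.p6, 5′ to 3′ on the strand of the gene, and capitals mark each ACGTG or GCGTG core or its reverse complement, CACGT or CACGC. A palindromic CACGTG counts as 2 cores, 1 on each strand, and neighbouring cores can share bases. The windows are Ankrd37, chr8:45999851-46000100, minus strand, with 4 cores. Pfkfb3, chr2:11502091-11502340, minus strand, holds 3 cores. Bnip3, chr7:138909507-138909756, minus strand, holds 5. Ldha, chr7:46845554-46845803, plus strand, holds 5. Vegfa, chr17:46032378-46032627, minus strand, holds 0, as does Zfp760, chr17:21707491-21707740, plus strand. Spsb2, chr6:124808668-124808917, plus strand, holds 1.
Ankrd37: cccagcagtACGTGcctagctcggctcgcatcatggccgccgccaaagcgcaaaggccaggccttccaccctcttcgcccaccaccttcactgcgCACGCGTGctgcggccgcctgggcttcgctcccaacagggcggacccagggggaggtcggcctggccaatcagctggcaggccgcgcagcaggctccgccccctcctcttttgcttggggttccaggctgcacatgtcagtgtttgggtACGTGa
Pfkfb3: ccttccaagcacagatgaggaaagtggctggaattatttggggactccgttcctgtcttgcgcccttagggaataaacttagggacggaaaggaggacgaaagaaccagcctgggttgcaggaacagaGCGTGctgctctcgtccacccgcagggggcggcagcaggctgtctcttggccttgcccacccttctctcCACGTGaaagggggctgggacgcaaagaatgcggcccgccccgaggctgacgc
Bnip3: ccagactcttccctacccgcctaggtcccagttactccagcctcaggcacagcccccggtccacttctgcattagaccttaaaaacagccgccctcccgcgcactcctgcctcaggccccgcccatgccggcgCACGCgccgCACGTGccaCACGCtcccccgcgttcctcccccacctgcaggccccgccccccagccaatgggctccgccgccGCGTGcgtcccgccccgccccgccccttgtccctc
Ldha: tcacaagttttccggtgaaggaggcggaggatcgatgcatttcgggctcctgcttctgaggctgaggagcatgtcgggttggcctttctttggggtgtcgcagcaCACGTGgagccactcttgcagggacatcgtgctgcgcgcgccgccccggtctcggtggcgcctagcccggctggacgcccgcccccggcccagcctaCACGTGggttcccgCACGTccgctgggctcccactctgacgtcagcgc
Vegfa: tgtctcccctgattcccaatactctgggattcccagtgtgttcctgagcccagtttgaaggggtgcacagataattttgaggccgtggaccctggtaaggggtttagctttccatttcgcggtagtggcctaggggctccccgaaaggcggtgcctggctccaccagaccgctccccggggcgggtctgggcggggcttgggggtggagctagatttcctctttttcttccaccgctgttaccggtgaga
Spsb2: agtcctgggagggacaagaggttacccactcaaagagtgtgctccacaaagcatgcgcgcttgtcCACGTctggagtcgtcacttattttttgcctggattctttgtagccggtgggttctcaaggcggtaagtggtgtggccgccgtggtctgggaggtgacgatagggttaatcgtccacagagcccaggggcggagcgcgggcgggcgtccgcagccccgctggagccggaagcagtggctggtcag
Zfp760: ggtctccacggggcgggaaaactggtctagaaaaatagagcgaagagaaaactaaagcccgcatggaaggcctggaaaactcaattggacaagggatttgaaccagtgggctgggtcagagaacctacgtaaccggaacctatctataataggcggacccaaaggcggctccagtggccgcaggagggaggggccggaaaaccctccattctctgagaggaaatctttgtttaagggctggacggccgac

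The same letters were searched on both strands in a window of 300 bases, from 250 before to 50 after the start, for the 7962 tested genes whose RefSeq start could be matched. A core of either kind lay in 67.0% of all these promoters, so its presence alone says little. It lay in 72.5% of the promoters of genes that rose and in 64.3% of those of genes that fell. The narrower core ACGTG lay in 27.0% of all promoters and in 33.9% of those of genes that rose. Past a rise of 1 on the log2 scale, 15 of 29 promoters held it (51.7%). Past a fall of 0.75, 11 of 71 did (15.5%). The listed HIF targets, which are known partly from such elements, held it in 32 of 49 promoters (65.3%), and the glycolytic genes in 12 of 23 (52.2%). The genes of COPI, COPII and SNARE transport held it in 28 of 42 promoters (66.7%), a share as high as that of the HIF targets. The Zfp genes, which mostly fell, held ACGTG in 24.4% of promoters and a CCAAT box in 48.4%, against 39.2% of all promoters with CCAAT. A match is a description of letters and not of binding, and its absence, as in Vegfa, says only that these letters are not in this window.

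The oxygen sensors and their partners moved in both directions. Of 17 tested genes of HIF subunits and oxygen-sensing enzymes, 6 rose and 4 fell. Those shares, 35.3% higher and 23.5% lower, stand against 19.6% of all tested genes in each direction. Egln3, the prolyl hydroxylase with the strongest known feedback induction, went from 14.5, 13.7 and 14.5 FPKM at 21% oxygen to 51.4, 54.0 and 46.3 FPKM at 1% oxygen. Egln1, the principal oxygen sensor, rose from 13.1 ± 0.519 to 25.8 ± 1.11 FPKM. Vhl, the ligase subunit that recognises hydroxylated HIF alpha, rose from 19.1 ± 0.754 to 29.6 ± 0.972 FPKM. These 3 genes restrain HIF. Hif1a itself rose from 105 ± 2.25 to 161 ± 5.10 FPKM. On the other side, Hif1an, the asparagine hydroxylase that blocks HIF transactivation, fell from 4.66 ± 0.368 to 3.66 ± 0.181 FPKM. Ado, an oxygen-sensing thiol dioxygenase, fell from 8.55 ± 0.129 to 6.98 ± 0.349 FPKM. Siah1a, a ubiquitin ligase that targets the prolyl hydroxylases, fell from 17.4 ± 1.18 to 12.5 ± 0.536 FPKM. Arnt, the shared partner of the alpha subunits, was lower by 0.30 on the log2 scale (SE 0.10), with overlapping libraries and a call lost under 7 of 15 alternatives.

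Of the 62 tested HIF targets outside glycolysis, 43 rose and 3 fell, or 69.4% and 4.84% against 19.6% of all tested genes each way. Their median log2 change was 0.50 against 0.01 over all. The list was drawn up from known targets with earlier results of these data in view. Fam162a, a mitochondrial protein induced by HIF, rose from 111 ± 6.52 to 259 ± 5.85 FPKM. Ero1l, the oxidase of disulfide formation in the endoplasmic reticulum, rose from 21.7 ± 0.455 to 36.9 ± 2.15 FPKM. Adm, the vasodilator adrenomedullin, rose by 0.58 on the log2 scale from a mean of 279 FPKM. The 3 listed targets that went the other way were Ndrg1 (-0.24), Plin2 (-0.30) and Insig2 (-0.36) on the log2 scale. Ndrg1, a stress-responsive cytoplasmic protein, went from 107, 107 and 101 FPKM at 21% oxygen to 86.7, 98.3 and 83.2 FPKM at 1% oxygen. Plin2, a coat protein of lipid droplets, went from 114, 127 and 129 FPKM at 21% oxygen to 96.9, 99.9 and 103 FPKM at 1% oxygen. Insig2, which holds back sterol synthesis, had overlapping libraries and lost its call under 5 alternatives. Plin3, another lipid droplet protein, also fell, from 53.3 ± 3.74 to 36.4 ± 2.49 FPKM.

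Most glycolytic genes rose. Of 25 tested genes 17 rose, 2 fell and 6 did not pass, with a median log2 change of 0.47. The 68.0% higher stands against 19.6% of all tested genes. The summed level of the 25 went from 3782 to 3927 FPKM in the normoxia libraries to 5908 to 6109 FPKM in the hypoxia libraries. Ldha, lactate dehydrogenase A, went from 270.3, 283 and 293 FPKM at 21% oxygen to 719, 708 and 677 FPKM at 1% oxygen. Tpi1, triosephosphate isomerase, rose from 206 ± 13.6 to 504 ± 10.8 FPKM. Pgam1, phosphoglycerate mutase, rose from 251 ± 3.95 to 533 ± 17.8 FPKM. The gains of these abundant enzymes in FPKM were among the 10 largest of any gene, as were those of Pgk1 and Aldoa. Pgk1, phosphoglycerate kinase, rose from 526 ± 25.7 to 787 ± 18.7 FPKM, and Aldoa, the main aldolase, from 682 ± 10.3 to 942 ± 18.4 FPKM. The 2 falls were Tigar, a bisphosphatase that slows glycolysis and feeds the pentose phosphate pathway, from 5.40 ± 0.358 to 3.84 ± 0.114 FPKM, and Adpgk, an ADP-dependent glucokinase, from 45.2 ± 0.734 to 40.0 ± 1.82 FPKM.

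At the branch between lactate and the mitochondrion, 7 of 17 tested genes rose and 2 fell, 52.9% called against 39.3% of all tested genes. Pdk1, the kinase that shuts pyruvate dehydrogenase, went from 5.43, 5.29 and 5.96 FPKM at 21% oxygen to 18.9, 19.9 and 18.4 FPKM at 1% oxygen. Pdp1, the phosphatase that reopens the same enzyme, went from 26.4, 25.9 and 30.5 FPKM at 21% oxygen to 16.3, 16.6 and 15.5 FPKM at 1% oxygen. The kinase and its opposing phosphatase thus moved apart, by 1.61 and -0.73 on the log2 scale. Slc16a1, the lactate carrier MCT1, rose from 11.0 ± 0.637 to 15.5 ± 0.367 FPKM, and Bsg, the chaperone of both carriers, from 328 ± 14.5 to 381 ± 6.51 FPKM. Among 12 adenylate and nucleoside kinases 3 rose, among them Ak4 and Ak6 (log2 change 0.25), and Nme6 fell (-0.27). That 33.3% called was under the 39.3% of all tested genes. Akr1b3, the aldose reductase that turns glucose to sorbitol, went from 839, 863 and 895 FPKM at 21% oxygen to 1575, 1434 and 1364 FPKM at 1% oxygen. Its rise was 0.75 on the log2 scale (SE 0.085), from a level in FPKM above that of the glycolytic enzymes named here.

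The genes of mitochondrial respiration themselves hardly moved. Of 80 nuclear genes of the respiratory chain 3 rose and 2 fell, and of 21 genes of the citric acid cycle 1 rose, Mdh2 (log2 change 0.12). These shares are far under the 39.3% of all tested genes. After quantile normalization no gene of the cycle was higher and 3 were lower. The respiratory genes are abundant, and their summed level was 18943 to 21399 FPKM in normoxia and 20096 to 20778 FPKM in hypoxia. The calls within them were fragile, since 14 of the 80 were lower after quantile normalization and the 3 rises became 1 without dko normoxia library 2 or without hypoxia library 1 or 2. Among the 82 proteins of the cytosolic ribosome only Rpl4 was called (log2 change 0.09), and that call was lost under 10 alternatives. Of 11 genes of the mitochondrial genome mt-Atp8 alone was called, but its libraries overlapped, from 192 to 443 FPKM in normoxia and from 424 to 789.8 FPKM in hypoxia. mt-Atp8 is short and shares bases with mt-Atp6, so its FPKM is uncertain.

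Some dioxygenases that use oxygen as a substrate, as the EGLN sensors do, changed. Of 33 tested demethylases of histones and nucleic acids 9 rose and 5 fell, and this 42.4% called was near the 39.3% of all tested genes. Jmjd6, a hydroxylase and demethylase of RNA-binding proteins, went from 19.6, 20.7 and 20.3 FPKM at 21% oxygen to 47.8, 48.0 and 41.2 FPKM at 1% oxygen. Alkbh5, which erases N6-methyladenosine from mRNA, went from 20.6, 20.6 and 20.4 FPKM at 21% oxygen to 41.8, 39.6 and 39.6 FPKM at 1% oxygen. Mettl3, which writes the same mark, went the opposite way, from 11.2, 10.8 and 10.6 FPKM at 21% oxygen to 5.84, 6.68 and 7.38 FPKM at 1% oxygen. The eraser and the writer thus changed by 0.94 and -0.64 on the log2 scale. Kdm5b, a demethylase of promoter histones, rose by 0.46. Alkbh7, a mitochondrial family member, fell by 0.79 and Kdm4a fell by 0.44, while Kdm6a (-0.23) and Hspbap1 (-0.23) fell less. The count of falls was 3 instead of 5 without normoxia library 2 or without hypoxia library 3. Of 17 collagen hydroxylases and lysyl oxidases 5 rose by the limma call (29.4% against 19.6% of all tested genes). With the trend on GC content and length removed 8 of them rose. Plod2, which hydroxylates collagen lysines, rose from 20.4 ± 0.623 to 51.7 ± 2.66 FPKM. P4ha1 and P4ha2, the catalytic subunits of collagen prolyl hydroxylase, each rose by 0.79 on the log2 scale, and Plod1 by 0.36.

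The clock genes leaned upward, with 10 of 20 rising (50.0% against 19.6% of all tested genes) and 2 falling. Bhlhe40, a repressor of the clock that is itself induced by HIF, went from 1.37, 1.76 and 1.73 FPKM at 21% oxygen to 9.61, 8.92 and 5.90 FPKM at 1% oxygen. Rora, a nuclear receptor that drives Bmal1, went from 2.86, 2.67 and 2.51 FPKM at 21% oxygen to 7.03, 6.45 and 6.76 FPKM at 1% oxygen. Dbp, an output gene of the clock, went from 2.97, 3.10 and 3.39 FPKM at 21% oxygen to 2.08, 2.12 and 1.78 FPKM at 1% oxygen. The repressor Cry1 (0.38) and the nuclear receptor Nr1d2 (0.37) rose on the log2 scale. Among the 13 tested partners of MYC and MAX, Max (0.54) and Mxi1 (0.64) rose and Mlx (-0.42), Mnt (-0.39) and Mxd3 (-0.28) fell. In that list 4 rose and 3 fell, 53.8% called against 39.3% of all tested genes. The count of rises was 2 without normoxia library 3 and 2 without hypoxia library 1 or 2.

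In the endothelial programmes, angiogenic ligands and receptors rose more than they fell. Of 31 tested genes of VEGF signalling and tip cells 14 rose (45.2%) and 3 fell (9.68%), against 19.6% of all tested genes each way. Their median log2 change was 0.17. Cxcr4, the chemokine receptor of migrating tip cells, rose from 207 ± 7.53 to 284 ± 6.77 FPKM, and its ligand Cxcl12 from 8.37 ± 0.197 to 12.8 ± 0.988 FPKM. Ackr3, the scavenger receptor for the same ligand, went down from 2.67, 1.80 and 2.85 FPKM to 0.616, 0.804 and 0.941 FPKM. The signalling receptor and the scavenger of CXCL12 thus moved in opposite directions, by 0.45 and -0.94 on the log2 scale. The VEGF receptors split as well. Flt1, a decoy for VEGF-A, rose from 5.15 ± 0.469 to 7.46 ± 0.153 FPKM and Flt4, the receptor for VEGF-C, from 63.5 ± 5.62 to 77.5 ± 3.16 FPKM, while Kdr, the main signalling receptor, fell from 74.2 ± 4.28 to 62.6 ± 0.475 FPKM. Nrp2, a coreceptor, rose by 0.28 and Prox1, the identity factor of lymphatic endothelium, by 0.43. Calcrl, the receptor of adrenomedullin, rose from 73.4 ± 3.51 to 116 ± 4.21 FPKM together with its ligand. Edn1, the vasoconstrictor endothelin, fell by 0.15 on the log2 scale and its receptor Ednrb rose by 0.45.

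Notch genes split, with 7 of 27 rising and 8 falling, 25.9% and 29.6% against 19.6% of all tested genes each way. Dll4, the ligand of tip cells, went from 3.97, 3.79 and 3.79 FPKM at 21% oxygen to 7.11, 5.96 and 5.36 FPKM at 1% oxygen. Its targets moved unevenly. Hes1 rose from 14.5 ± 1.04 to 19.2 ± 1.92 FPKM, whereas Nrarp, a target that feeds back on the pathway, fell from 4.31 ± 0.305 to 2.50 ± 0.267 FPKM. Rbpj, the DNA-binding factor (0.36), and Adam10, the sheddase of Notch (0.29), rose, while Notch2 (-0.39), Hes6 (-0.52) and Lfng (-1.21) fell on the log2 scale. Without normoxia library 3 or hypoxia library 3 the rises numbered 4, and without normoxia library 1 or hypoxia library 1 the falls numbered 5. Of 42 BMP and TGF-beta genes 12 rose and 5 fell, and this 40.5% called was near the 39.3% of all tested genes. Fst, the activin trap follistatin, rose from 19.4 ± 1.09 to 34.3 ± 2.82 FPKM, and Inhbb, the activin B subunit it binds, fell from 4.20 ± 0.441 to 1.86 ± 0.242 FPKM. Smurf1 (0.60) and Smurf2 (0.33), ligases that degrade BMP and TGF-beta receptors and SMADs, rose together. The decoy receptor Bambi (-0.60) and the ligands Tgfb3 (-0.41) and Bmp4 (-0.37) fell.

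Barrier and identity genes did not move as a block. Cldn5, the claudin of endothelial tight junctions, went from 274, 303 and 318 FPKM at 21% oxygen to 200.1, 215 and 184 FPKM at 1% oxygen, 1 of the 10 largest losses in FPKM. Jam3, a junctional adhesion molecule, fell from 49.0 ± 1.16 to 40.6 ± 0.851 FPKM. The phosphatases Ptprb (0.54) and Ptprm (0.42), which act on VE-cadherin contacts, and the scaffold Magi1 (0.43) rose, and its relative Magi3 (-0.24) fell. Over the 28 tested junction genes 6 rose and 6 fell, close to the share of all genes. Of 34 endothelial transcription factors 11 rose and 10 fell, 32.4% and 29.4% against 19.6% of all tested genes each way. Erg, which maintains endothelial identity, rose from 175 ± 1.56 to 213 ± 3.50 FPKM and Tcf4 from 90.7 ± 3.28 to 131 ± 5.77 FPKM. Hlx (-0.73), Tbx1 (-0.57), Tal1 (-0.48), Bcl6b (-0.33) and Sox18 (-0.34) fell. Of 32 HOX, FOX and SOX genes 13 fell and 7 rose, 40.6% lower against 19.6% of all genes. The HOX genes named by the rule, Hoxd4 (-0.56), Hoxd10 (-0.40) and Hoxb7 (-0.37), all fell, and Foxn3 rose by 1.26 (SE 0.29). Without normoxia library 3 the rises in that list were 4.

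The balance of clotting and fibrinolysis changed on both sides. Of 18 tested genes 7 rose (38.9%) and 4 fell (22.2%), against 19.6% of all tested genes each way. Plat, whose values are given above, was among the genes that rose. Plaur, the urokinase receptor, rose from 148 ± 5.10 to 230.3 ± 6.73 FPKM, while Plau, urokinase, fell from 1154 ± 25.8 to 1037 ± 28.6 FPKM. Thbd, the anticoagulant thrombomodulin, went from 35.8, 37.8 and 35.4 FPKM at 21% oxygen to 27.6, 29.3 and 28.7 FPKM at 1% oxygen. F2rl3, a thrombin receptor, fell by 0.49 on the log2 scale and Tfpi2, a protease inhibitor of the matrix, rose by 0.49. Of 39 collagen, laminin and integrin genes 15 rose (38.5% against 19.6% of all genes), among them Itga6 (0.38) and Itga3 (0.30), and 3 fell. That number of rises was 9 without normoxia library 3, 8 without hypoxia library 1 and 9 without hypoxia library 2, and the falls were 1 without normoxia library 2 or hypoxia library 3. Col3a1, a fibroblast collagen at a low level here, fell from 2.15 ± 0.221 to 0.698 ± 0.204 FPKM. The 6 fibroblast markers summed to 6.03 to 6.41 FPKM in normoxia and 4.38 to 5.01 FPKM in hypoxia, a fall that was nearly all Col3a1 itself. Among them Dcn changed by 0.03 on the log2 scale and Lum was at or near 0. A wider list of 15 fibroblast genes, most of it Fn1 and Thy1, summed to 609 to 682 FPKM in normoxia and 618 to 709.8 FPKM in hypoxia, and the part of other cells in the fall of Col3a1 was not tested.

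MLKs feed the stress-activated kinases, so the genes of the MAPK cascades were listed on their own. Of 49 tested kinases and scaffolds of the JNK, p38 and ERK cascades, 13 rose and 6 fell. The 13 include the targeted Map3k10, which passed the filter on low values through its wild type level alone. The 38.8% called was near the 39.3% of all tested genes. Map2k1, the kinase of ERK known as MEK1, went from 53.2, 53.7 and 56.7 FPKM at 21% oxygen to 82.4, 81.9 and 82.6 FPKM at 1% oxygen. Map3k7 (TAK1), which feeds JNK, p38 and NF-kB, rose from 25.4 ± 0.444 to 32.3 ± 0.477 FPKM. Map3k4, another entry to JNK and p38, fell from 8.10 ± 0.260 to 5.01 ± 0.138 FPKM. The p38 beta gene Mapk11 (-0.28), Map3k6 (-0.26) and the ERK and p38 target kinase Mknk2 (-0.27) fell, and the atypical kinase Mapk6 rose (0.44). Without normoxia library 3 the falls were 3. The dual-specificity phosphatases, which switch MAPKs off, split by member. Dusp6, specific for ERK, went from 38.4, 40.9 and 40.9 FPKM at 21% oxygen to 18.9, 20.1 and 20.2 FPKM at 1% oxygen. Dusp16, which acts on JNK and p38, went from 3.17, 2.61 and 2.93 FPKM at 21% oxygen to 6.64, 5.58 and 5.70 FPKM at 1% oxygen. Dusp1 (0.46) and Dusp10 (0.20), which also act on JNK and p38, rose, and Dusp5 (-0.30) and Dusp9 (-0.49), which act on ERK, fell with Dusp19 (-0.34). All 7 called phosphatases had no overlap between normoxia and hypoxia libraries. Of 16 output genes of ERK 7 rose, among them Etv4 (0.50), Epha2 (0.41) and Errfi1 (0.52), and 2 fell, Dusp6 and Spred3 (-0.19, lost under 9 alternatives). That was 56.2% called against 39.3% of all tested genes.

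Immediate early genes were more often up than down, 17 against 8 of 31, with a median log2 change of 0.24. Their shares, 54.8% higher and 25.8% lower, stand against 19.6% of all tested genes each way. Ier3, a survival gene of the early response, went from 142, 133 and 132 FPKM at 21% oxygen to 401, 404 and 372 FPKM at 1% oxygen. Maff, a small MAF factor, rose from 55.2 ± 2.88 to 87.5 ± 4.64 FPKM, and Csrnp1 from 2.39 ± 0.0677 to 5.23 ± 0.302 FPKM. Jdp2, a repressor of AP-1, fell from 10.8 ± 0.193 to 7.43 ± 0.580 FPKM. Rhob (-0.23), Ier5l (-0.60) and Zfp36l2 (-0.59) fell as well. Of 20 genes of NF-kB signalling 6 rose, including Nfkbiz (0.70) and Tnfaip3 (0.65), and 5 fell, including the inhibitor Nfkbie (-0.51). Of 20 chemokine genes 5 rose and 6 fell, with 3 rises without hypoxia library 1 or 3. The NF-kB and chemokine lists each had 55.0% called, against 39.3% of all tested genes. Of 54 interferon and antigen presentation genes 3 rose and 3 fell, 11.1% called against 39.3% of all tested genes. Irf1, a transcription factor of the interferon response, fell from 9.75 ± 0.680 to 6.02 ± 0.627 FPKM, and the rises in that list numbered 11 without hypoxia library 2 and 1 without normoxia library 2 or 3 or hypoxia library 1 or 3.

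The p53 targets split evenly, with 11 of 39 rising and 11 falling, 28.2% each way against 19.6% of all tested genes. Ppm1d, the phosphatase WIP1 that ends the p53 response, went from 13.5, 12.8 and 12.3 FPKM at 21% oxygen to 30.8, 29.0 and 27.6 FPKM at 1% oxygen. Mdm2, the ligase of p53, rose from 119.8 ± 1.66 to 170.1 ± 2.56 FPKM. Gadd45a is a growth arrest gene that binds the MAPK kinase kinase MEKK4 (Map3k4). Gadd45a went from 246, 247 and 242 FPKM at 21% oxygen to 139.9, 163 and 167 FPKM at 1% oxygen. Thus 2 negative regulators of p53 rose, by 1.12 and 0.50 on the log2 scale, and Gadd45a fell by 0.65. The proapoptotic genes Bmf, from 3.20 ± 0.256 to 1.36 ± 0.101 FPKM, and Bik, from 17.9 ± 1.86 to 10.1 ± 0.583 FPKM, fell, as did Xpc, the damage sensor of nucleotide excision repair (-0.47).

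Stress chaperones leaned upward. Of 47 heat shock genes 25 rose (53.2% against 19.6% of all tested genes) and 3 fell, with a median log2 change of 0.13. Hspa1b, inducible HSP70, went from 101, 107 and 107 FPKM at 21% oxygen to 219, 213 and 193 FPKM at 1% oxygen, and its near-identical copy Hspa1a at 7.76, 7.76 and 7.71 FPKM and at 18.9, 17.7 and 16.3 FPKM. Reads of these copies are hard to assign, so their split is uncertain. Hspa9, the mitochondrial HSP70, rose from 219 ± 9.22 to 288 ± 0.479 FPKM. Hspa12b, an endothelial family member, fell from 17.3 ± 0.864 to 11.8 ± 0.284 FPKM, Fkbp4 fell by 0.27 and Dnajb2 by 0.31. The falls were 8 after quantile normalization and 5 without normoxia library 1. Of 33 genes of the integrated stress response 17 rose (51.5% against 19.6% of all tested genes) and 1 fell, Cebpg (-0.46). Eif2ak3, the kinase PERK, rose from 15.4 ± 0.114 to 25.3 ± 2.02 FPKM and Nupr1 from 47.2 ± 2.36 to 160.2 ± 9.32 FPKM. The unfolded protein response gave a mixed count of 10 rises and 5 falls in 31, with a median log2 change of 0.02. Its 16.1% lower was near the 19.6% of all tested genes, and its 32.3% higher was above that share. Its sensor Atf6 rose (0.32) and its transcription factor Xbp1 fell (-0.22). That count was unsteady, with 6 rises and 8 falls after quantile normalization, 6 rises without hypoxia library 2, 5 without normoxia library 1 or hypoxia library 3, and 3 falls without normoxia library 2. Of 37 NRF2 genes 12 rose by the limma call (32.4% against 19.6% of all tested genes), and after quantile normalization 4 were lower. Gclc, the limiting enzyme of glutathione synthesis, went from 20.2, 20.3 and 20.5 FPKM at 21% oxygen to 33.6, 36.1 and 33.5 FPKM at 1% oxygen. Txnip, a thioredoxin inhibitor and brake on glucose uptake, fell from 222 ± 7.35 to 145 ± 5.46 FPKM.

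Many genes that build ribosomes rose, while of the ribosome's own proteins Rpl4 alone was called. Of 68 ribosome biogenesis genes 41 rose, 5 fell and 22 did not pass, 60.3% higher against 19.6% of all tested genes, with a median log2 change of 0.18. Their summed level was 2694 to 2899 FPKM in the normoxia libraries and 3191 to 3248 FPKM in the hypoxia libraries. Gnl3, the nucleolar GTPase nucleostemin, went from 19.1, 20.0 and 21.1 FPKM at 21% oxygen to 45.0, 42.1 and 42.2 FPKM at 1% oxygen. Cirh1a, a factor of the small subunit processome, rose from 23.6 ± 0.691 to 36.9 ± 0.752 FPKM. Wdr43, of the same complex, rose from 18.7 ± 0.808 to 27.1 ± 0.765 FPKM, and Tsr1, which matures the small subunit, from 11.8 ± 0.406 to 17.1 ± 0.300 FPKM. In none of the 4 did the libraries overlap, as was so for 2180 of the 2233 genes called higher. Taf1a, Taf1b and Taf1c, which are subunits of the selectivity factor that brings RNA polymerase I to ribosomal DNA, fell. Taf1a went from 12.5, 11.5 and 11.5 FPKM at 21% oxygen to 6.98, 6.40 and 7.00 FPKM at 1% oxygen, while Taf1b fell by 0.46 and Taf1c by 0.34. Rrs1, an assembly factor of the large subunit, fell by 0.23. Several small nucleolar RNA hosts rose too, 8 of 21, such as Snhg1 (0.39) and Snhg4 (0.53), and 2 fell, Snhg17 (-0.44) and Snhg20 (-0.69). The 38.1% higher in that list stands against 19.6% of all tested genes, although without hypoxia library 2 the rises were 4.

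RNA processing followed. Of 46 splicing factors 23 rose and 7 fell, and of 62 genes of mRNA decay 27 rose and 7 fell. Shares higher were 50.0% and 43.5% and shares lower 15.2% and 11.3%, against 19.6% of all tested genes each way. Srsf5, an SR protein, rose from 99.9 ± 2.56 to 173 ± 5.35 FPKM, Mbnl1 from 127 ± 2.78 to 186 ± 2.38 FPKM and Qk from 44.8 ± 1.37 to 63.1 ± 0.923 FPKM. Tra2a, a splicing activator that acts with SR proteins, went from 72.2, 77.1 and 82.1 FPKM at 21% oxygen to 45.9, 45.8 and 46.8 FPKM at 1% oxygen. Its paralogue Tra2b (-0.33) and Srsf7 (-0.52) fell with it. In decay, the deadenylase partner Tob2 (0.70) and the nonsense-mediated decay factors Smg6 (0.56) and Smg5 (0.38) rose. Exosc3, a cap subunit of the RNA exosome, fell from 21.9 ± 2.68 to 13.6 ± 0.865 FPKM. Zfp36l2, which destabilises AU-rich messages, fell from 24.7 ± 1.47 to 16.0 ± 0.661 FPKM, and Btg2 fell by 0.22 while Btg1 rose by 0.34. Sirt7, a deacetylase of the nucleolus, fell from 20.4 ± 1.39 to 12.8 ± 1.20 FPKM.

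Transport out of the endoplasmic reticulum was another rising group. Of 48 genes of COPI, COPII and SNARE transport 25 rose and 3 fell, 52.1% higher against 19.6% of all tested genes. After quantile normalization 17 were higher and 6 lower. Sec24d, a cargo adaptor of COPII, went from 27.3, 29.4 and 26.5 FPKM at 21% oxygen to 38.2, 37.5 and 38.1 FPKM at 1% oxygen. Arcn1 and Copg2, subunits of COPI, rose by 0.37 and 0.30, and the tether Golga4 by 0.33. The falls were of Stx5a (-0.16), Arfgap2 (-0.15) and Arfgap3 (-0.13). The proteasome rose in 13 of 37 genes (35.1% against 19.6% of all tested genes) and fell in 1, led by its assembly factor Psmd5 (0.49). After quantile normalization its rises were 7. Of 28 YAP and Hippo genes 14 rose (50.0% against 19.6% of all tested genes) and 1 fell. Yap1 rose from 43.9 ± 2.66 to 58.3 ± 1.20 FPKM, its partner Tead4 from 2.11 ± 0.159 to 3.67 ± 0.330 FPKM and the target Ctgf from 178 ± 5.20 to 230.2 ± 8.14 FPKM. Tead2 fell by 0.24.

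**Figure D3:**
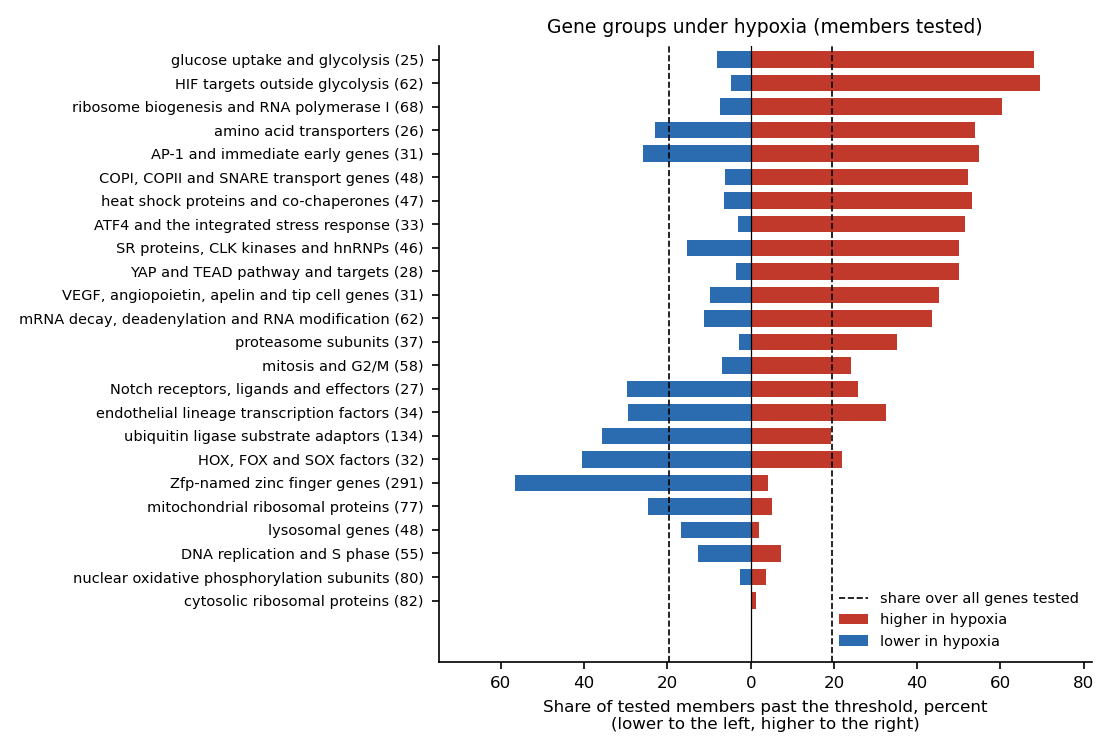
Bars give, for 24 gene lists, the percent of tested members that passed the threshold upward (right) and downward (left) in hypoxia in the double knockout, with dashed lines at the 19.6% of all tested genes in each direction. HIF targets, glycolysis and ribosome biogenesis extend furthest to the right, and the Zfp genes extend furthest to the left.

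The largest group that fell was the zinc finger genes. Of 291 tested genes with a Zfp symbol 165 fell and 12 rose, 56.7% lower against 19.6% of all tested genes, with a median log2 change of -0.28. Most encode C2H2 zinc finger proteins, many of them KRAB repressors of transposable elements, but the list was made by symbol and holds other kinds. Their summed level was 2234 to 2341 FPKM in the normoxia libraries and 1962 to 1994 FPKM in the hypoxia libraries. Zfp763 went from 3.00, 3.29 and 3.53 FPKM at 21% oxygen to 0.987, 0.552 and 1.21 FPKM at 1% oxygen. Zfp329 went from 7.57, 8.07 and 6.65 FPKM at 21% oxygen to 3.62, 2.67 and 3.22 FPKM at 1% oxygen. Zfp518a went from 5.42, 5.67 and 5.60 FPKM at 21% oxygen to 2.82, 2.65 and 3.09 FPKM at 1% oxygen. Zfp3 (-0.99) and Zfp472 (-0.72) fell similarly on the log2 scale. The exceptions were few. Zfp654 rose from 3.42 ± 0.270 to 5.85 ± 0.331 FPKM, Zfp292 from 7.52 ± 0.422 to 11.4 ± 0.471 FPKM and Zfp91 from 30.7 ± 1.08 to 43.1 ± 0.862 FPKM. The falls numbered 144 to 154 with any 1 double knockout library left out, 142 after quantile normalization and 161 with the trend on GC content and length removed. Among the 135 Zfp genes that averaged at least 5 FPKM, 67 fell and 6 rose.

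**Figure D4:**
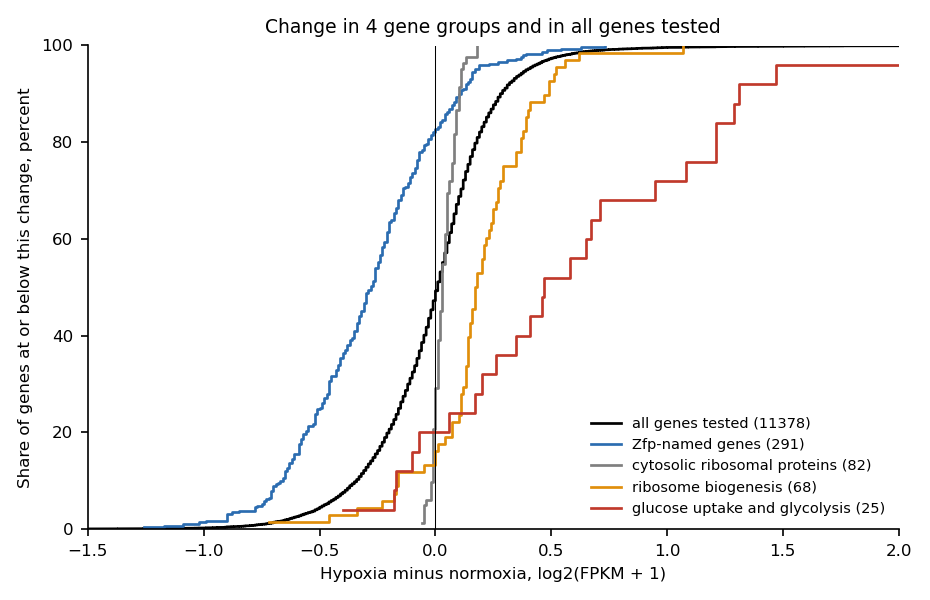
Cumulative share of genes (y axis) against the log2 change in hypoxia (x axis) for all tested genes and for 4 lists in the double knockout. The Zfp curve lies left of that of all genes (median -0.28), ribosome biogenesis (0.18) and glycolysis (0.47) lie to the right, and cytosolic ribosomal proteins (0.03) climb steeply near 0.

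Substrate adaptors of ubiquitin ligases also leaned downward, with 48 of 134 lower (35.8% against 19.6% of all tested genes) and 26 higher (19.4%). After Spsb2 and Klhl36 the clearest were Fbxo25, from 31.9 ± 0.985 to 20.7 ± 0.212 FPKM, and Klhl24, from 50.0 ± 0.244 to 40.8 ± 0.516 FPKM. Wsb1, a HIF-induced adaptor, rose from 59.7 ± 1.46 to 89.8 ± 1.32 FPKM and Btbd3 from 70.3 ± 3.41 to 109.6 ± 6.07 FPKM. Among 139 RNF, TRIM and USP genes, mostly ubiquitin ligases and deubiquitinases, the split was near even, 28 higher and 33 lower. That 43.9% called was near the 39.3% of all tested genes. Rnf19b went from 80.8, 81.4 and 76.7 FPKM at 21% oxygen to 159, 158 and 147 FPKM at 1% oxygen, while Trim13 (-0.85), Rnf144a (-0.75) and Rnf167 (-0.55) fell. Proteins of the mitochondrial ribosome fell in 19 of 77 and rose in 4, 24.7% lower against 19.6% of all tested genes. Mrpl44 went from 23.8, 22.5 and 26.6 FPKM at 21% oxygen to 15.4, 16.0 and 15.8 FPKM at 1% oxygen, and Mrps12 fell from 19.4 ± 0.857 to 13.6 ± 0.815 FPKM. Of the tRNA synthetases the mitochondrial Hars2 (-0.36) and Aars2 (-0.26) fell, as did the cytosolic Cars (-0.16), while the cytosolic Eprs (0.16) and Gars (0.25), which serves both compartments, rose. The synthetase list gave 10 rises and 6 falls in 39, or 41.0% called, also near the share of all tested genes. Its rises were 4 after quantile normalization and 6 without hypoxia library 3. Dhx30, a helicase that assembles the mitochondrial ribosome, fell from 27.9, 26.3 and 25.1 FPKM to 18.5, 20.5 and 18.8 FPKM.

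Carriers, channels and receptors changed member by member. Of 156 SLC carriers 41 rose and 25 fell, a share of 42.3% that was near the 39.3% of all tested genes. Of 26 amino acid carriers 14 rose and 6 fell (76.9%). Slc7a6 (0.54), Slc36a4 (0.54), Slc38a2 (0.52) and the taurine carrier Slc6a6 (0.52) rose. Slc43a2, an exporter of large neutral amino acids, fell from 21.1 ± 1.22 to 12.9 ± 1.42 FPKM. Slc31a2, a copper carrier, went from 39.2, 44.4 and 47.2 FPKM at 21% oxygen to 24.4, 23.9 and 23.8 FPKM at 1% oxygen. The zinc carriers Slc39a3 (-0.59) and Slc30a1 (-0.38) fell as well, and Slc39a14, which imports zinc and iron, rose (0.44). Among 55 ion channel genes 16 rose and 6 fell, and this 40.0% called was near the 39.3% of all tested genes. Rises numbered 9 among the ion channel genes that averaged at least 5 FPKM. Kcne3, a potassium channel subunit, went from 10.9, 11.8 and 13.3 FPKM at 21% oxygen to 29.3, 29.3 and 26.3 FPKM at 1% oxygen. Kcnj2, the inward rectifier that sets endothelial membrane potential, went from 1.18, 1.33 and 1.54 FPKM at 21% oxygen to 3.12, 3.36 and 3.31 FPKM at 1% oxygen. The pore subunits of store-operated calcium entry split, with Orai2 up from 56.8 ± 0.975 to 106 ± 4.47 FPKM and Orai1 down from 13.5 ± 0.494 to 10.5 ± 0.598 FPKM. The lysosomal channel Mcoln1 fell from 27.7 ± 3.98 to 16.6 ± 0.240 FPKM. Of 55 G protein coupled receptor and RGS genes 19 rose and 15 fell, 61.8% called against 39.3% of all tested genes. Gper1, an oestrogen-responsive receptor, went from 0.398, 0.419 and 0.395 FPKM to 3.30, 3.74 and 3.48 FPKM, while S1pr2 (-0.65) and Lpar6 (-0.54), receptors for lysophospholipids, fell. Of 48 lysosomal genes 8 fell and 1 rose, 18.8% called against 39.3% of all tested genes. Falls in that list numbered 19 after quantile normalization and 13 without normoxia library 1.

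Cell cycle genes were listed by phase. Of 55 genes of DNA replication 4 rose and 7 fell, and this 20.0% called was under the 39.3% of all tested genes. Of 58 mitotic genes 14 rose and 4 fell, and this 31.0% called was also under that share, with 24.1% higher against 19.6% of all. Of 30 G1 cyclins, kinases and inhibitors 9 rose and 4 fell, or 43.3% called. Plk4, the kinase that starts centriole copying, rose from 6.13 ± 0.732 to 9.81 ± 1.80 FPKM and Hmmr from 9.68 ± 0.264 to 11.8 ± 0.810 FPKM. Spc25, a kinetochore subunit, fell from 17.8 ± 1.27 to 14.0 ± 0.988 FPKM. The mitotic rises numbered 22 after quantile normalization, 9 without normoxia library 2, 9 without hypoxia library 1 and 8 without hypoxia library 3. The inhibitors of cyclin-dependent kinases split, with Cdkn1b (0.42) and Cdkn1a (0.32) higher and Cdkn1c (-0.59) and Cdkn2c (-0.41) lower. Ccnd1, cyclin D1, rose from 389.9 ± 6.37 to 460.4 ± 19.5 FPKM and Cdk4 fell from 218 ± 3.04 to 196 ± 7.88 FPKM. Of 69 histone genes 1 rose and 6 fell, 10.1% called against 39.3% of all tested genes. Histone falls numbered 15 after quantile normalization and 19 without normoxia library 1. Histone rises numbered 4 without normoxia library 3 and 3 without hypoxia library 2. In lipid metabolism 7 of 31 sterol genes fell (22.6% against 19.6% of all tested genes) and 2 rose, with 4 falls without normoxia library 3. G0s2, an inhibitor of lipolysis, fell from 12.5 ± 1.27 to 6.22 ± 0.358 FPKM, and Cpt2, of fatty acid import into mitochondria, from 2.89 ± 0.649 to 1.63 ± 0.0959 FPKM. Mitophagy genes gave 8 rises and 10 falls in 47, with 6 falls without hypoxia library 3. That 38.3% called was near the 39.3% of all tested genes. The receptor Bnip3l rose with Bnip3, from 59.1 ± 0.442 to 78.2 ± 2.44 FPKM, and Atg16l2 fell from 5.44 ± 0.181 to 2.46 ± 0.358 FPKM.

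In absolute level, the largest gain was that of Akr1b3, followed among the 10 largest by glycolytic enzymes, Ier3, Actb, mt-Atp8 and Tm4sf1. Tm4sf1, a tetraspanin-like protein of endothelium, went from 1264, 1519 and 1684 FPKM at 21% oxygen to 1833, 1728 and 1769 FPKM at 1% oxygen, and lost its call under 3 alternatives. Actb rose from 2622 ± 113 to 2964 ± 80.5 FPKM. The 10 largest losses held no glycolytic gene. Car2, a carbonic anhydrase, went from 133, 151 and 140.4 FPKM at 21% oxygen to 73.1, 73.3 and 71.2 FPKM at 1% oxygen. Kank3, a scaffold of focal adhesions, went from 127, 138 and 128 FPKM at 21% oxygen to 83.8, 85.0 and 83.7 FPKM at 1% oxygen. Both fell in a tight band in hypoxia, by 0.95 and 0.63 on the log2 scale. Eif4a2, a translation helicase, fell from 275 ± 29.8 to 219 ± 7.06 FPKM and Ivns1abp from 251 ± 12.2 to 199 ± 8.03 FPKM.

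The sum over a gene hid opposite changes of its transcripts in some genes. Of 18090 transcripts tested alone 24.6% passed the limma threshold, 2351 upward and 2094 downward, and 60 genes had called transcripts in both directions. The share of a gene given to each transcript is the authors' estimate from short reads and is less certain than the sum. Dido1, a chromatin-binding regulator, was the clearest case. Its transcript of 8723 bases (ENSMUST00000087517) went from 7.55, 7.56 and 6.24 FPKM at 21% oxygen to 11.9, 12.1 and 12.3 FPKM at 1% oxygen. Its transcript of 4613 bases (ENSMUST00000103055) went from 4.05, 4.27 and 4.08 FPKM at 21% oxygen to 2.23, 1.87 and 1.98 FPKM at 1% oxygen. The long form rose by 0.70 and the short form fell by 0.76 on the log2 scale, while the gene rose by 0.27. In Gpsm1, a regulator of G protein alpha subunits, one transcript rose by 0.70 and the other fell by 0.67, and the gene sum changed by -0.24. In Clcn3, a chloride-proton exchanger of endosomes, ENSMUST00000093490 rose from 16.8, 16.6 and 16.3 FPKM to 27.1, 26.2 and 23.8 FPKM while ENSMUST00000110301 fell from 6.90, 6.24 and 6.57 FPKM to 2.90, 3.20 and 3.29 FPKM. Ubtf, the architectural factor of ribosomal DNA transcription, had 3 transcripts that rose by 0.72 to 0.89 and 1 that fell by 0.70 with a gene sum of 0.16. The calls named in Dido1, Gpsm1 and Ubtf, and these 2 of Clcn3, held under every alternative. Those of Fam220a were lost under 10 and 11.

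**Figure D5:**
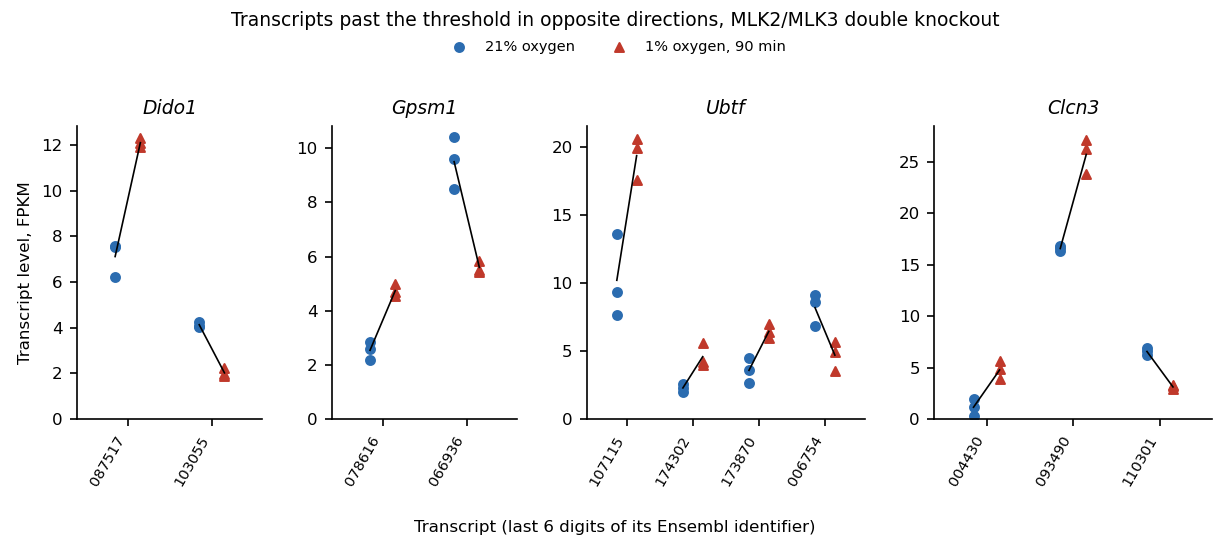
Transcript levels in FPKM (y axis) for the called transcripts of Dido1, Gpsm1, Ubtf and Clcn3 in the 3 libraries at 21% oxygen (circles) and the 3 at 1% oxygen (triangles), with lines joining the means. In each gene at least 1 transcript goes up while another goes down.

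Genes that rose and fell also differed in build, which the selection did not use. In GENCODE M21 the main transcripts of genes that rose had a median of 11 exons and 3422 bases, those of genes that fell 7 exons and 2670.0 bases, and those that did not pass 8 exons and 2573 bases. The median span on the chromosome was 36549 bases for genes that rose and 17819 bases for those that fell. The share of calls followed span in steps. Of the 2617 genes that span up to 10000 bases 12.2% rose and 25.9% fell. Of the 1370 that span over 100000 bases 29.8% rose and 9.27% fell. Of 298 genes with a single-exon main transcript 27 rose (9.06%) and 79 fell (26.5%). The Zfp genes had a median of 4 exons and 45.4% GC, against 50.3% GC over all genes. With the trend on GC content and length removed from each library, 2420 genes were higher and 2248 lower, and whether build has a part in the calls was not tested further.

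Beside the double knockout, wild type cells under the same hypoxia had 20.8% of genes past the limma threshold, 1192 upward and 1178 downward. The difference between the 2 responses was called for 22 of the 11378 genes (0.193%), and a call in 1 genotype alone shows no difference. The values side by side for the groups above are 165 and 88 Zfp genes lower, 41 and 19 ribosome biogenesis genes higher and 25 and 7 vesicle transport genes higher, in the double knockout and in wild type. The median log2 changes were -0.28 and -0.18 for the Zfp genes, 0.18 and 0.08 for ribosome biogenesis and 0.50 and 0.56 for the HIF targets. In the DNA replication list the medians were -0.03 and -0.19, with 7 and 26 falls, and in the mitotic list 0.09 and -0.13, with 4 and 17 falls. In those 6 lists Zfp760 was the single member with a called difference. Of the genes with a called difference, Ackr3 fell by 0.94 in the double knockout and was at 1.93 to 1.96 FPKM in wild type normoxia and 1.97 to 2.21 FPKM in wild type hypoxia. Kcnj2 rose by 0.86 against 0.17 in wild type, and Trmt5 changed by -1.08 against -0.39. Etv4 rose by 0.50 against 0.12, and Dusp5 changed by -0.30 against 0.17. The limma adjusted p of these 5 differences were 0.0347 to 0.0354, and each missed the threshold under some alternatives. The count of 22 ranged from 1 to 39 with any 1 of the 12 libraries left out.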

How the data were processed

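RNA of 12 libraries of mouse lung endothelial cells was sequenced, and the authors deposited FPKM per transcript. TopHat2 is named in the submitters' processing notes; for its version, the genome build, the annotation and the quantifier, nothing is given in the sources used here. FPKM were summed over the transcripts of a gene, and genes that averaged 1 FPKM or more across all 12 were compared as log2(FPKM + 1) with limma 3.58.1 in R 4.3.3, fitted over all 4 groups with a variance trend and 8 residual degrees of freedom, with Benjamini-Hochberg adjustment over 11378 genes and a threshold of 0.05. Transcripts were tested alone in the same way. Depth was estimated from low FPKM values, which are near whole multiples of 1 fragment: 88.3% to 91.7% of them lay within 0.1 fragment. Positions and gene build are from GENCODE M21, which holds 95.2% of the transcripts, and promoters are from RefSeq. The 78 gene lists, the members and the tests were chosen with earlier results of these data known. Genes were named by a rule: the targeted genes, the 20 largest changes in each direction without overlap of libraries, the 10 largest gains and losses in FPKM, up to 4 members of a list in each direction by smallest p, up to 10 genes with opposite transcripts, and genes with a called difference between genotypes. Data of 11378 genes were simulated for hypoxia in the double knockout, with 50 genes changed at each size. Of changes of 0.25 on the log2 scale 46.0% were called, of 0.5 84.0%, and of 1 or 2 100%. The simulation changed far fewer genes than were called here, and none at the lowest levels. These rates therefore need not hold for the real data. Alternatives changed the pseudocount, filter, scaling, libraries fitted and variance trend, added a replicate block or left out each double knockout library. The removal of a trend on GC content and length, and the leaving out of each wild type library for the difference between genotypes, were chosen after seeing the data.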

Additional observations from a re-analysis of the deposited data

Results flagged for a closer look

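The response to hypoxia differed between the double knockout and wild type in an interaction test with limma for 22 genes, 13 of which the naming rule reached. Differences are the double knockout change minus the wild type change on the log2 scale, over 3 libraries a group. Map3k10, the targeted gene of MLK2, differed by 1.02 (SE 0.10), with 0.92 in the double knockout and -0.10 in wild type. It passed the filter on low values through wild type alone, and with a pseudocount of 0.1 FPKM the difference was 2.46. Its transcript ENSMUST00000036453, which holds the double knockout signal, changed by 0.92 in the double knockout and by 0.34 (limma adjusted p = 0.0773) in wild type, and the difference of 0.57 (SE 0.15) was not past the threshold (limma adjusted p = 0.196). Ackr3, a scavenger receptor of CXCL12, differed by -0.99 (SE 0.16), with -0.94 in the double knockout and 0.06 in wild type. Trmt5, a tRNA methyltransferase, differed by -0.69 (SE 0.10), with -1.08 in the double knockout and -0.39 in wild type. Kcnj2, a potassium channel, differed by 0.69 (SE 0.11), with 0.86 in the double knockout and 0.17 in wild type. Zfp760, a zinc finger gene, differed by -0.66 (SE 0.11), with -1.26 in the double knockout and -0.61 in wild type. Clec2d, a C-type lectin, differed by -0.63 (SE 0.10), with -0.94 in the double knockout and -0.31 in wild type. Lrrn4cl, a gene of little-known function, differed by -0.60 (SE 0.09), with -0.77 in the double knockout and -0.17 in wild type. Arhgap20, a GTPase activating protein, differed by 0.54 (SE 0.09), with 0.47 in the double knockout and -0.07 in wild type. Hpn, the serine protease hepsin, differed by -0.53 (SE 0.09), with -0.23 in the double knockout and 0.30 in wild type. Dhx30, an RNA helicase, differed by -0.51 (SE 0.08), with -0.44 in the double knockout and 0.07 in wild type. Etv4, an ETS factor downstream of ERK, differed by 0.38 (SE 0.06), with 0.50 in the double knockout and 0.12 in wild type. Dusp5, an ERK phosphatase, differed by -0.47 (SE 0.07), with -0.30 in the double knockout and 0.17 in wild type. Ptges3, the HSP90 cochaperone p23, differed by 0.23 (SE 0.04), with 0.26 in the double knockout and 0.03 in wild type. The limma adjusted p was 0.00375 for Map3k10 and 0.0347 to 0.0482 for the others. Summed over its transcripts, Map3k10 passed under all 20 alternatives that could test it, with a highest adjusted p of 0.0495. The others passed under 2 (Hpn) to 9 (Trmt5 and Etv4) of 19 or 20, and their highest adjusted p over the alternatives reached 0.146. Hpn was at 10.5, 9.95 and 9.76 FPKM in double knockout cells at 21% oxygen and 8.94, 8.34 and 7.93 FPKM at 1% oxygen, and at 4.80, 4.69 and 5.50 FPKM for wild type at 21% oxygen and 6.65, 6.30 and 6.11 FPKM at 1% oxygen. Ptges3 was at 155, 155 and 155 FPKM in double knockout cells at 21% oxygen and 186, 185 and 186 FPKM at 1% oxygen, and at 166, 162 and 166 FPKM for wild type at 21% oxygen and 168, 168 and 167 FPKM at 1% oxygen. The hypoxia libraries of Hpn lay below those of normoxia in the double knockout and above them in wild type. What underlies these differences was not tested.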

How the results depend on the processing

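Leaving out any 1 double knockout library gave 1822 to 2018 genes higher and 1855 to 2151 lower, against 2233 and 2235. Of 491 named genes past the threshold, Map3k10 apart, 431 passed it in the same direction under each of the 15 alternatives run, 60 missed it in 1 or more and 34 in more than 3. The number of genes whose response differed between the genotypes, 22, was the least stable: 12 after quantile normalization, 6 without the variance trend, 1 to 17 with 1 double knockout library left out, and 1 to 39 with 1 wild type library left out. It was 17 without double knockout hypoxia library 2 and 1 or 2 without any other double knockout library. It was 4, 1 and 1 without wild type normoxia library 1, 2 and 3, and 39, 2 and 23 without wild type hypoxia library 1, 2 and 3. With the replicate number as a block it was 2, and 2115 genes were higher and 2131 lower. The deviations of libraries that share a number correlated by 0.016, 0.021 and -0.022 in the double knockout and by -0.084, 0.050 and 0.040 in wild type. In the double knockout 1 of 3 normoxia libraries matched its own number best. Whether libraries of 1 number share a culture or mouse is not given and cannot be told from these values. Fam220a, whose sum changed by -0.02, ranged from -0.05 to 0.04 with 1 library left out, turned positive without normoxia library 3 (0.04) or hypoxia library 1 (0.01), and was 0.03 with the GC and length trend removed. Lyz2, at -0.06, ranged from -0.11 to 0.02 with 1 library left out and turned positive without normoxia library 3. The cause was not tested in any of these. Depth of about 42.4 to 49.2 fragments for 2000 effective bases at 1 FPKM limits the genes near that level.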
